A study of Rattus norvegicus with 44 samples.

Results

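Kidneys of male Harlan Sprague Dawley rats dosed with crude 4-methylcyclohexanemethanol (MCHM) at 300 mg/kg were compared with kidneys of rats given the corn oil vehicle alone (0 mg/kg). The comparison takes 6 of the 44 arrays of the series, 3 at 300 mg/kg and 3 of vehicle, chosen by the organ and dose in their titles, and all probe sets except the array's control probes. MCHM is an alicyclic primary alcohol whose crude industrial mixture is used to clean coal. Rats aged 6 to 8 weeks at assignment to groups were gavaged on 5 days at 5 mL/kg, and tissue was collected 1 day after dosing ended. All rats, vehicle rats included, ate the same diet and received the same oil volume. Kidney arrays were also made at 0.1, 1, 10 and 100 mg/kg (2 each) and 500 mg/kg (3), and the liver had 4 arrays at 300 mg/kg and 4 of vehicle. The submitters' design text says that arrays with batch effects had been removed, and those are not analysed here. Samples within a group are labelled as biological replicates.

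The kidney's proximal tubule takes up and conjugates many foreign compounds and uses fatty acids as its main fuel, so it is where alcohol- and xenobiotic-handling enzymes are found. Damaged tubule cells are known to switch on *Havcr1*, the gene of kidney injury molecule, and *Lcn2*, the gene of a secreted iron-carrier binding protein. Nuclear receptors such as PPARA, CAR, PXR and AhR, and the oxidant sensor NRF2, switch on metabolic and protective genes in rat tissues exposed to chemicals.

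The arrays carried kidney transcripts as labelled. The 24 proximal tubule markers averaged 11.82 to 11.96 on the log2 scale in the 300 mg/kg arrays and 11.89 to 11.96 in the vehicle arrays, against a mean of 7.19 over the liver arrays. The 12 hepatocyte markers averaged 5.12 to 5.32 in the 300 mg/kg arrays and 5.09 to 5.25 in the vehicle arrays, against 13.68 in liver. Levels are deposited log2 values throughout, and a difference of 1 is a 2-fold change.

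Arrays of these groups differed from one another in ways that dose does not follow. *Xist*, the RNA that coats the inactive X chromosome of female cells, read 6.95 in vehicle replicate 2, while the remaining 16 kidney arrays ran from 2.68 to 3.02, although all animals are labelled male. Its 3 other probe sets read 7.74, 8.32 and 9.33 in that array. The Y-linked *Uty* read 9.11 there, above its range of 7.83 to 8.34 in the other kidney arrays, so transcripts of both sex chromosomes were present. Liver vehicle replicate 2 showed the same, with *Xist* at 8.25 against a range of 2.79 to 3.27 over the remaining liver arrays. The kidney array goes against its label in this respect, and the count of calls is given with and without it.

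Fat cell transcripts varied within both groups. *Car3*, a carbonic anhydrase abundant in fat and muscle, read 3.98, 9.74 and 6.66 in 300 mg/kg replicates 1, 2 and 3, and 4.49, 9.79 and 10.01 in vehicle replicates 1, 2 and 3. *Ucp1*, the uncoupling protein of brown fat, read 4.44, 9.86 and 5.28 at 300 mg/kg, against 4.61, 4.50 and 9.17 in vehicle. Over the 17 adipocyte markers, the median deviation from the mean of all kidney arrays was -0.31, 0.56 and -0.27 at 300 mg/kg and -0.23, 0.19 and 0.59 in vehicle. In whole tissue, fewer cells of a type and less RNA per cell cannot be told apart. The groups overlapped, none of the 17 markers passed the test, and *Fabp4*, a fatty acid carrier of fat cells, differed by -0.07.

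The first principal component of the kidney arrays, which held 24.3% of the variance, put 300 mg/kg replicate 2 (39.6) with vehicle replicates 2 and 3 (35.3 and 25.3). It put 300 mg/kg replicates 1 and 3 (-4.5 and -16.8) with vehicle replicate 1 (-13.0). Spread within each group along this component was thus larger than the distance between the groups. Pairs of kidney arrays correlated at r = 0.984 to 0.996 across probe sets, which are not independent replicates.

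**Figure D1:**
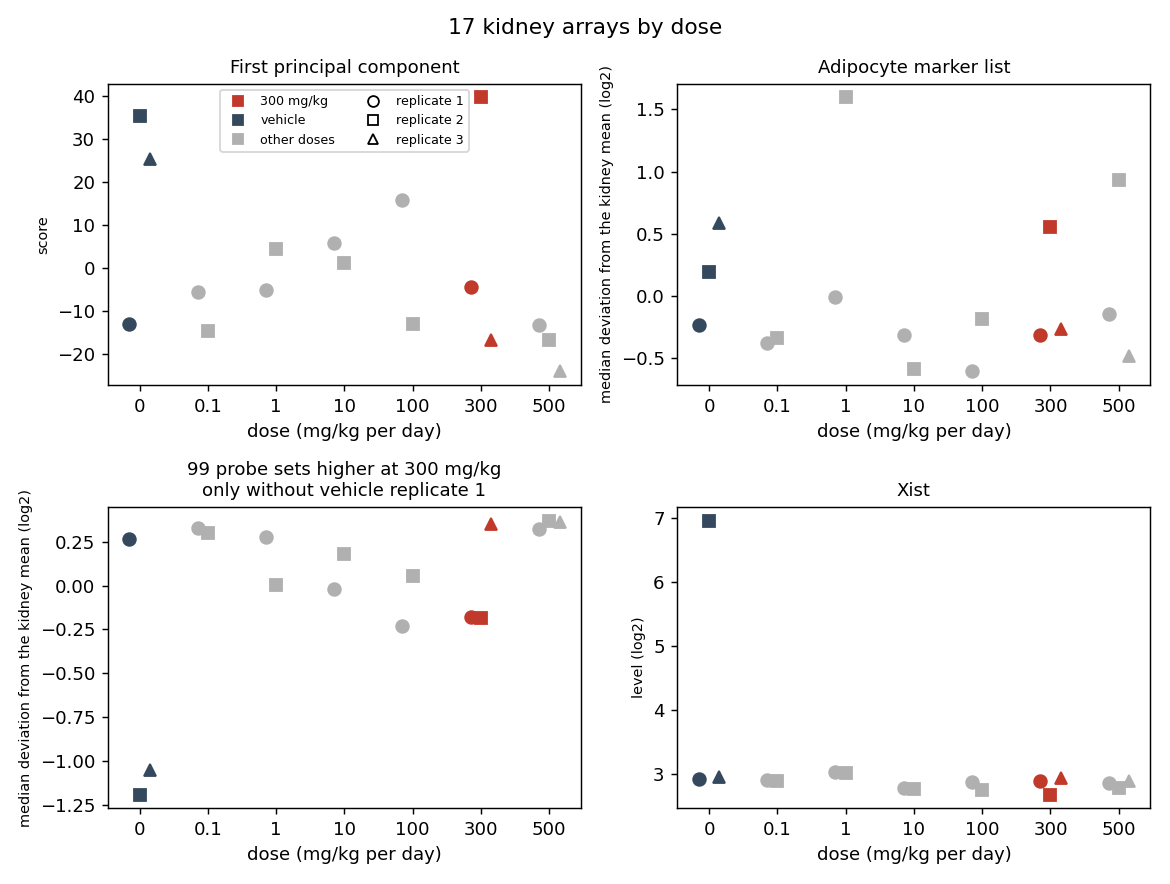
Each point is 1 kidney array, placed by dose in mg/kg per day, with red for 300 mg/kg, dark blue for vehicle, grey for other doses and a symbol for each replicate number. The panels show the first principal component score, the median log2 deviation of 17 adipocyte markers, the median log2 deviation of 99 probe sets described in the text, and the log2 level of *Xist*. Vehicle replicates 2 and 3 lie at -1.19 and -1.05 in the panel of 99 probe sets, below every other array.

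No gene passed the test between 300 mg/kg and vehicle kidneys. Of 31042 probe sets, 0 (0%) passed limma's test at an adjusted p of 0.05 in either direction, and the smallest adjusted p was 0.999. At an unadjusted p under 0.05, 1123 probe sets (3.62%) differed, 556 higher (1.79%) and 567 lower (1.83%) at 300 mg/kg, fewer than the 1552 that this threshold lets through when nothing differs. In 2385 probe sets (7.68%) the 3 arrays at 300 mg/kg did not overlap the 3 of vehicle. Counts over gene lists below are of genes, each read by 1 probe set, and there the unadjusted test let through 180 of 14217 genes as higher (1.27%) and 329 as lower (2.31%). The median difference over these genes was -0.01. Without vehicle replicate 2, 0 probe sets passed the adjusted and 837 the unadjusted test. With the adipocyte marker level as a covariate, an alternative chosen after seeing the data, 0 and 1225 did.

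The intervals bound what the arrays could have missed. The median standard error of a difference was 0.13. For 97.4% of probe sets the 95% interval lay within a 2-fold change in both directions. Among the 15521 brighter probe sets, 84.6% had an interval within 1.5-fold both ways. The number of arrays limits this precision: an exact permutation test of 3 against 3 cannot give a two-sided p under 0.1, so calls rest on limma's spread shared over 7 kidney dose groups.

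This count of 0 depended on vehicle replicate 1. Without that array 103 probe sets passed limma's test, 99 higher and 4 lower at 300 mg/kg, naming 81 genes. Leaving out any other array of these groups gave 0. The following genes were chosen from that list after their values were seen. *Xiap*, an inhibitor of caspases, read 7.60, 7.50 and 8.31 in 300 mg/kg replicates 1 to 3 and 8.17, 5.87 and 6.32 in vehicle replicates 1 to 3. *Akap9*, which anchors protein kinase A at the Golgi and centrosome, read 6.74, 6.77 and 7.53 at 300 mg/kg, against 7.29, 5.40 and 5.50 in vehicle. *Tpr*, a protein of the nuclear pore basket, read 7.02, 7.13 and 7.40 at 300 mg/kg, against 7.42, 5.92 and 5.90 in vehicle. In each of these genes, vehicle replicate 1 lay within or just above the range of the dosed arrays and vehicle replicates 2 and 3 below it, a pattern that the choice of genes favours.

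Across the 99 higher probe sets, the position of vehicle replicate 1 with the dosed arrays follows from how they were chosen and is given as a description. Their median deviation from the kidney mean was -0.18, -0.19 and 0.35 at 300 mg/kg and 0.26, -1.19 and -1.05 in vehicle. The 11 arrays of the other doses lay between -0.23 and 0.37. Their levels are not part of that contrast, but they enter the spread of its fit and the kidney mean, so they are not independent of the choice. The median difference of the 99 was 1.10 without vehicle replicate 1 and 0.64 with it. Among the 4 lower probe sets, *Gdf15*, a secreted stress cytokine, read 7.02, 6.69 and 7.13 at 300 mg/kg, against 7.18, 7.92 and 8.35 in vehicle, a difference of -0.87 (SE 0.24) with all arrays, which did not pass. *Nos3*, the endothelial nitric oxide synthase, read 3.73, 3.68 and 4.05 at 300 mg/kg and 3.94, 4.65 and 4.44 in vehicle. What sets vehicle replicates 2 and 3 apart was not tested.

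Groups overlapped in most of the genes with the largest differences, as they did in most probe sets. A difference of at least 1 was seen in 21 genes, 6 higher and 15 lower at 300 mg/kg, none past the test. In 18 of the 21 the groups overlapped, while over all probe sets they did not overlap in 7.68%. *Mx2*, an interferon-induced GTPase, read 9.56, 8.75 and 4.25 at 300 mg/kg, against 9.88, 10.10 and 8.91 in vehicle, a difference of -2.12 (SE 1.53) with replicate 3 far below the other 5 arrays. At 500 mg/kg *Mx2* differed from vehicle by -3.68, and the kidney arrays of the other doses ran from 4.16 to 9.78. *RT1-Bb*, a class II histocompatibility chain, read 8.77, 3.79 and 9.73 at 300 mg/kg, against 3.93, 3.87 and 8.69 in vehicle, which split both groups. *Glod5* read 9.55, 5.55 and 9.49 at 300 mg/kg, against 9.40, 9.83 and 9.46 in vehicle, with replicate 2 alone low. *Tmem174*, a kidney membrane protein, read 11.25, 8.22 and 8.48 at 300 mg/kg and 11.35, 11.03 and 11.24 in vehicle, low in 2 of the 3 dosed arrays. The kidney arrays of the other doses ran from 8.23 to 11.65, and at 500 mg/kg it differed from vehicle by 0.25.

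Leading genes were the 8 each way with the smallest p among the brighter genes whose groups do not overlap, and none passed (limma adjusted p = 0.999 for each). Non-overlap is part of that rule and carries no weight here. *Rdh16*, a retinol and steroid dehydrogenase, had the largest difference among them. It read 6.81, 5.70 and 6.64 at 300 mg/kg and 7.75, 7.71 and 8.48 in vehicle, a difference of -1.60 (95% interval -2.44 to -0.75). *Gpx2*, a glutathione peroxidase and NRF2 target, read 7.85, 6.62 and 6.58 at 300 mg/kg and 6.18, 6.12 and 6.06 in vehicle, a difference of 0.90 (SE 0.26). Without 300 mg/kg replicate 1, which was the high array, the *Gpx2* difference was 0.48.

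*Bhlhe40*, a repressor in the circadian clock, had the smallest p of the leading genes. It read 7.53, 7.22 and 7.45 at 300 mg/kg and 8.01, 7.94 and 8.12 in vehicle, a difference of -0.63 (SE 0.14). *Asgr1*, a subunit of the asialoglycoprotein receptor, differed by -0.71 and *Ppp1r15a*, which directs dephosphorylation of the translation factor eIF2α, by -0.47. *Insig1*, the sterol-sensing brake on cholesterol synthesis, read 8.69, 8.78 and 8.86 at 300 mg/kg and 8.57, 8.40 and 8.46 in vehicle, a difference of 0.30 (SE 0.08). *Rasgef1b*, a guanine nucleotide exchange factor, read 7.02, 7.43 and 7.02 at 300 mg/kg and 6.74, 6.71 and 6.68 in vehicle, a difference of 0.44 (SE 0.15), with replicate 2 the high array.

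The other leading genes differed by less than 0.40 either way. The higher ones were *Dnajc10*, a disulfide reductase of the endoplasmic reticulum (0.30), *Zfp770* (0.30), *Tgif2*, a transcriptional repressor (0.28), *Slco2a1*, the prostaglandin transporter (0.29), and *Adora2b*, an adenosine receptor (0.28). The lower ones were *Numa1*, a spindle pole protein (-0.39), *Glis1* (-0.36), *Erf*, a repressor of the ETS family (-0.32), and *Trim65* (-0.31). Of these leading genes 5 have a second probe set, and it went the other way in 3: 0.36 in *Numa1*, -0.20 in *Zfp770* and -0.01 in *Dnajc10*. The second probe sets of *Rasgef1b* and *Slco2a1* were at 0.20 and 0.12. None of the 16 leading genes changed sign or passed the test under any of the 14 alternatives, which share most of their arrays, and the smallest limma adjusted p among them was 0.111, in *Ppp1r15a*.

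**Figure D2:**
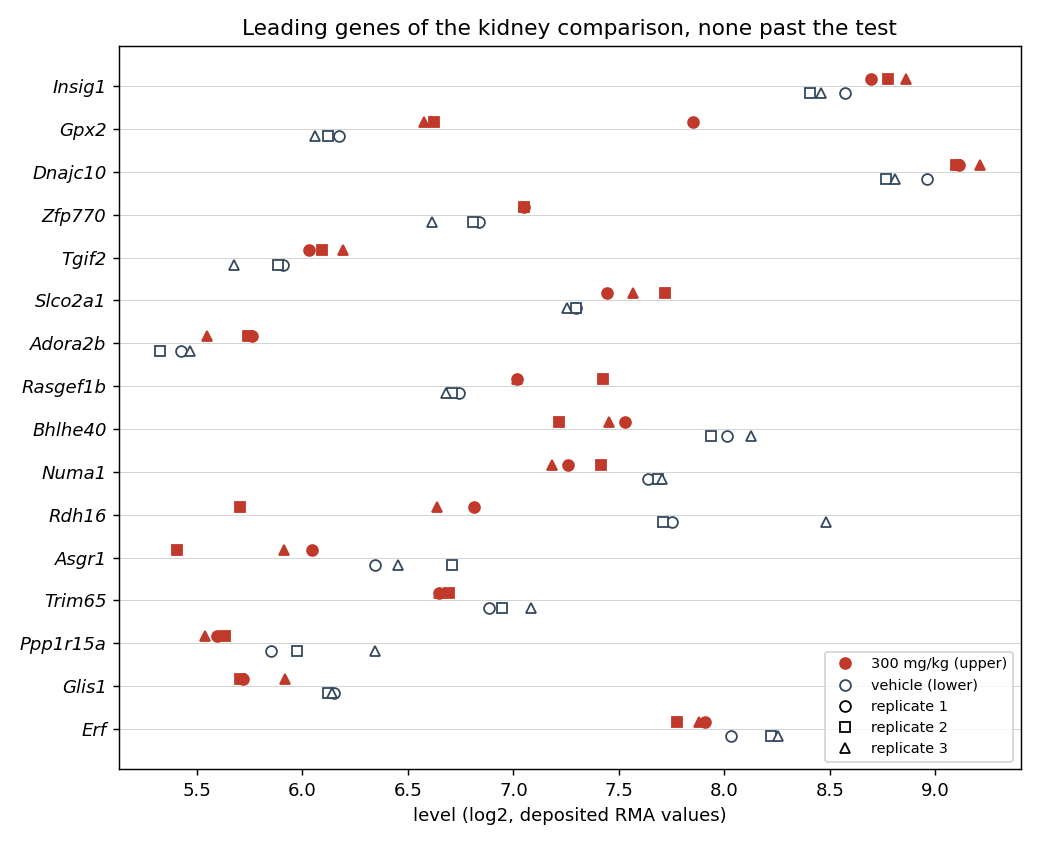
The log2 level of each of the 16 leading genes is plotted for every array, with filled red symbols for 300 mg/kg in the upper row of a gene and open blue symbols for vehicle in the lower row. The groups do not overlap because the genes were chosen that way, and the mean differences furthest from 0 are -1.60 in *Rdh16*, 0.90 in *Gpx2*, -0.71 in *Asgr1* and -0.63 in *Bhlhe40*.

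Genes of kidney injury did not differ past the test. None of the 26 measured genes of this list passed the unadjusted threshold, which let through 1.27% of all genes as higher and 2.31% as lower. Of the 26, 13 lay above and 13 below vehicle, and their median difference was 0.00. *Havcr1* read 4.09, 3.94 and 5.26 at 300 mg/kg, against 4.31, 3.81 and 3.80 in vehicle, so replicate 3 alone was high (difference 0.46, 95% interval -0.16 to 1.08). *Lcn2* read 5.03, 5.83 and 5.35 at 300 mg/kg and 4.67, 5.29 and 5.45 in vehicle, overlapping groups with a difference of 0.27. *Clu*, a secreted chaperone raised in injured tubules, differed by 0.20 and *Spp1*, the gene of osteopontin, by 0.51 (95% interval -0.50 to 1.51). *Umod*, the most abundant urinary protein, and *Egf*, both made in the distal nephron and known to fall in tubular disease, differed by 0.01 and -0.04.

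Xenobiotic-response genes gave no call. Of 21 CAR, PXR and AhR targets, none passed either threshold, and 13 lay above vehicle with a list median of 0.09, which was 0.00 with the adipocyte covariate. *Cyp1a1*, the classic AhR target, spread too widely to judge: 7.94, 6.79 and 9.44 at 300 mg/kg, against 7.36, 5.83 and 8.33 in vehicle (difference 0.89, 95% interval -0.87 to 2.64). *Cyp3a9* differed by 0.36 at mean levels of 3.62 at 300 mg/kg and 3.26 in vehicle. Of 28 NRF2 targets, 19 lay below vehicle and 3 of them passed the unadjusted threshold, against 2.31% of all genes, with a list median of -0.06. *Gsta1*, a glutathione transferase, read 12.98, 12.69 and 12.92 at 300 mg/kg and 13.21, 13.21 and 13.13 in vehicle (-0.32), and *Gstm1* differed by -0.50. The NRF2 targets *Nqo1* (0.04), *Hmox1* (-0.30) and *Gclc* (0.11) had intervals that include 0. *Gpx2*, at 0.90, is a known NRF2 target that was not on this list, and so is *Sqstm1*, at -0.19.

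Genes of the compound's chemical class and of fat burning were likewise without a call. Among 21 genes of alcohol and aldehyde oxidation, 1 passed the unadjusted threshold as higher, against 1.27% of all genes. That gene was *Cyp2e1*, an ethanol-oxidising cytochrome, at 10.95, 11.77 and 11.40 at 300 mg/kg, against 10.97, 10.80 and 10.19 in vehicle, with replicate 1 inside the vehicle range (difference 0.72, SE 0.24). *Adh1c*, an alcohol dehydrogenase, differed by 0.05 and *Aldh1a1*, a retinal dehydrogenase, by 0.09 (95% interval -0.16 to 0.35). Of 44 PPARA targets, 1 passed the unadjusted threshold as higher and 2 as lower, against 1.27% and 2.31% of all genes. Their median was 0.02. *Cyp4a1*, *Acot1* and *Ehhadh*, which oxidise or process fatty acids and are strongly induced by PPARA activators in rat liver, differed by 0.16, 0.07 and 0.03. *Cpt1a*, which admits fatty acids into mitochondria, differed by -0.31, and its second probe set by -0.54.

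Cholesterol synthesis genes lay on the same side of vehicle without passing. Of 20 measured, 0 passed the adjusted test, 19 lay above vehicle, 4 passed the unadjusted threshold as higher against 1.27% of all genes, and the list median was 0.14 against -0.01 for all genes. *Msmo1*, a sterol demethylating oxidase, read 8.64, 8.99 and 8.68 at 300 mg/kg and 8.38, 8.41 and 8.54 in vehicle (0.33, SE 0.11). *Cyp51*, the lanosterol demethylase, read 8.23, 8.53 and 8.61 at 300 mg/kg and 8.19, 8.21 and 8.17 in vehicle (0.26). The list median was 0.07 without 300 mg/kg replicate 2 and 0.23 without vehicle replicate 3. Of 21 fatty acid synthesis genes, 7 lay above vehicle, and their median was -0.13. In that list *Scd*, a desaturase that is also abundant in fat, read 4.89, 6.12 and 4.82 at 300 mg/kg and 4.74, 7.62 and 6.76 in vehicle, high in the arrays with high adipocyte markers. Its difference of -1.10 was -0.96 with the adipocyte marker level as a covariate, a level to which *Scd* itself belongs, and the list median was then -0.11.

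Interferon-induced genes lay below vehicle in 25 of 27, again with 0 past the adjusted test, and 6 passed the unadjusted threshold as lower, against 2.31% of all genes. *Irf7*, a master transcription factor of this response, read 6.84, 7.13 and 6.74 at 300 mg/kg and 7.36, 7.54 and 7.58 in vehicle (-0.59). *Isg15*, a ubiquitin-like protein, read 6.89, 6.78 and 6.56 at 300 mg/kg and 7.28, 7.18 and 7.09 in vehicle (-0.44). *Bst2*, which tethers budding virus, read 8.82, 7.93 and 8.60 at 300 mg/kg and 8.95, 9.11 and 9.06 in vehicle (-0.59). The list's median deviation was -0.08, -0.02 and -0.29 in the 300 mg/kg arrays and 0.04, 0.21 and 0.09 in the vehicle arrays. Its median difference of -0.23 was -0.17 without 300 mg/kg replicate 3, the lowest of the 6 arrays.

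Macrophage markers ran the same way, with 14 of 16 below vehicle and a median of -0.20. Of the 16, 4 passed the unadjusted threshold as lower, against 2.31% of all genes. *C1qb*, a complement chain made by tissue macrophages, read 6.52, 6.30 and 6.21 at 300 mg/kg and 6.55, 7.09 and 6.86 in vehicle (-0.49). *Adgre1*, an adhesion receptor of macrophages, read 5.57, 5.56 and 5.74 at 300 mg/kg and 5.86, 6.32 and 5.95 in vehicle (-0.42). Lymphocyte and plasma cell markers had a median of 0.00, but only 3 of those 16 lay above the median level of all probe sets. A median of such dim probe sets says little about these cells. Of 14 endothelial markers, 11 lay below vehicle and 3 passed the unadjusted threshold as lower, against 2.31% of all genes. Among the 3 were the vascular receptors *Flt1* (-0.26) and *Tie1* (-0.27). Other probe sets of *Flt1*, dim at kidney means of 4.05 and 4.07, differed by 0.01 and 0.17. The list median of -0.10 was -0.01 without 300 mg/kg replicate 1.

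Stress genes gave no call. Of 24 genes of endoplasmic reticulum stress, 19 lay below vehicle and 3 passed the unadjusted threshold as lower, against 2.31% of all genes. Their median of -0.14 was -0.08 without vehicle replicate 3. *Dnajb9*, a chaperone cofactor, read 8.44, 8.56 and 8.42 at 300 mg/kg and 8.59, 8.88 and 8.84 in vehicle (-0.30). Of 36 genes of the amino acid response, 2 passed the unadjusted threshold as lower, against 2.31% of all genes. They were *Atf4*, the master transcription factor of this response (-0.22), and *Cebpb* (-0.44). The 17 p53 targets had none past the unadjusted threshold, and *Cdkn1a*, the cell cycle inhibitor p21, differed by -0.04. Of 44 cell cycle genes, *Foxm1*, which drives mitotic genes, alone passed the unadjusted threshold (-0.41), near the 2.31% of all genes that passed as lower. Its second probe set, dim at a kidney mean of 3.15, differed by -0.02. The list medians were -0.09 for cell cycle and 0.00 for heat shock.

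Immediate early genes, which cells switch on within minutes of a stimulus, lay below vehicle in 21 of 30. At the unadjusted threshold 4 were lower and 1 higher, against 2.31% and 1.27% of all genes. *Maff*, a small transcription factor of the basic zipper class, read 4.10, 3.94 and 4.01 at 300 mg/kg and 4.64, 4.46 and 5.37 in vehicle (-0.81). *Jun* read 8.67, 8.07 and 9.36 at 300 mg/kg and 8.81, 9.59 and 9.81 in vehicle (-0.70), while *Fos* differed by 0.24. The list median of -0.14 was -0.02 without vehicle replicate 3, the highest of the 6 arrays.

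No list of nephron segment markers had a member past the adjusted test. The medians were -0.04 for 24 proximal tubule markers, 0.01 for 9 of the thick ascending limb and -0.08 for 8 of the distal convoluted and connecting tubule. They were 0.05 for 11 of collecting duct principal cells, 0.09 for 9 of intercalated cells and 0.04 for 10 of podocytes. *Slc34a1*, the phosphate carrier of the proximal tubule, read 13.22, 13.72 and 13.54 at 300 mg/kg and 13.58, 13.70 and 13.63 in vehicle. *Aqp2*, the vasopressin-regulated water channel, differed by 0.30 with overlapping groups. *Atp6v1b1*, a proton pump subunit of intercalated cells, differed by -0.42, with replicate 2 low at 8.17. The medians were 0.01 for 43 oxidative phosphorylation genes and 0.05 for 36 cytosolic ribosomal proteins.

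The transport, hormone and metabolic lists also had 0 members past the adjusted test. Of 40 genes of organic ion transport and conjugation, 4 passed the unadjusted threshold as lower and 1 as higher. Over all genes these shares were 2.31% and 1.27%. *Ugt2b7*, a glucuronosyltransferase, read 7.52, 4.89 and 6.70 at 300 mg/kg and 7.58, 8.43 and 8.21 in vehicle (-1.70, SE 0.66), with replicate 2 lowest. *Slc22a5*, the carnitine transporter, read 11.13, 11.25 and 11.12 at 300 mg/kg and 11.56, 11.56 and 11.40 in vehicle (-0.34). In glucose metabolism, 1 of 25 genes passed the unadjusted threshold: *Pc*, pyruvate carboxylase, read 9.42, 9.59 and 9.76 at 300 mg/kg and 9.94, 10.17 and 9.94 in vehicle (-0.43). Among 20 clock genes *Bhlhe40* alone did, and *Per1* differed by 0.25. None of 33 salt and water hormone genes or 21 hypoxia targets did, with medians of 0.05 and -0.02. The 19 androgen and growth hormone regulated genes had a median of -0.01, and *Cyp2c11*, a male-specific cytochrome of rat liver, read 7.65, 5.20 and 6.44 at 300 mg/kg and 7.64, 6.91 and 7.75 in vehicle.

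**Figure D3:**
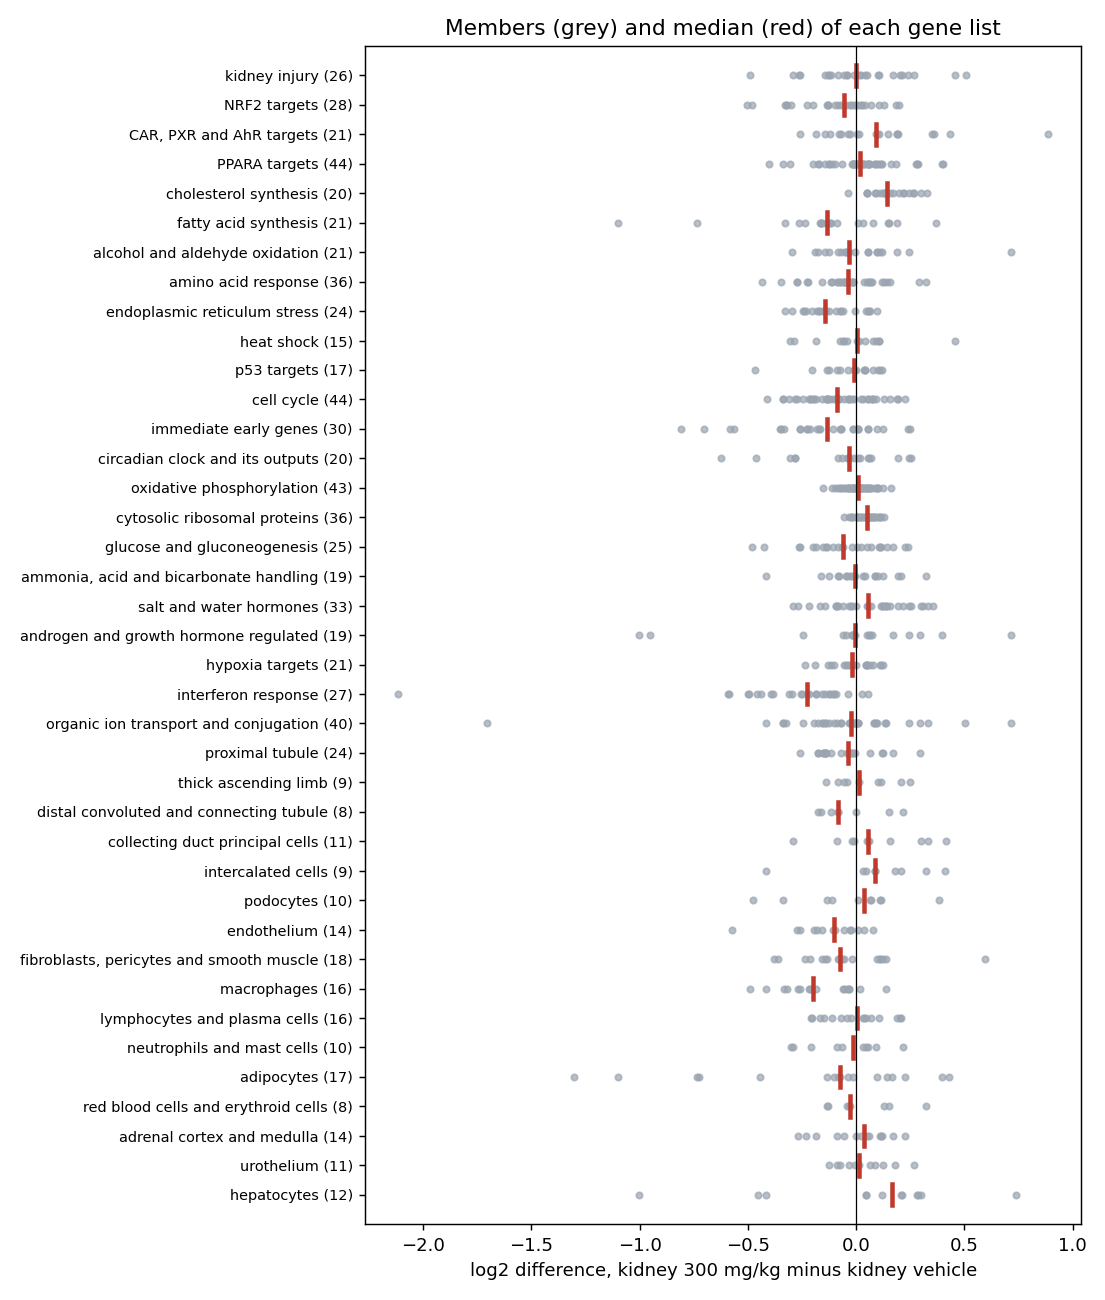
Each grey point is 1 gene's log2 difference, kidney 300 mg/kg minus kidney vehicle, and the red bar is the median of its list, with the number of measured genes in brackets. Medians lie between -0.23 (interferon response) and 0.16 (hepatocytes), and no point passed the test.

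At 500 mg/kg, the same 3 vehicle arrays serve as reference, so similarity between the doses is not independent. Against vehicle, 0 of 31042 probe sets (0%) passed at 500 mg/kg and 3131 (10.1%) passed the unadjusted threshold. Between 500 and 300 mg/kg, 0 (0%) passed and 1532 (4.94%) passed unadjusted. Among leading genes, *Insig1* differed from vehicle by 0.33 at 500 mg/kg and 0.30 at 300 mg/kg, and *Asgr1* by -0.72 and -0.71. *Rdh16* differed by -0.63 at 500 mg/kg and -1.60 at 300 mg/kg, and the doses themselves by 0.97. With the 6 arrays at 0.1, 1 and 10 mg/kg pooled as the reference in place of vehicle, 0 (0%) passed and 2025 (6.52%) passed unadjusted. Against those arrays the 300 mg/kg difference was -0.60 in *Rdh16*, -0.47 in *Bhlhe40*, 0.68 in *Gpx2* and 0.16 in *Rasgef1b*. It was 0.02 in *Tgif2*, 0.09 in *Adora2b* and -0.12 in *Erf*, and in all 16 leading genes, which were chosen on the vehicle contrast, it was nearer 0 than against vehicle. The list median was 0.10 for cholesterol synthesis and -0.24 for the interferon response.

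**Figure D4:**
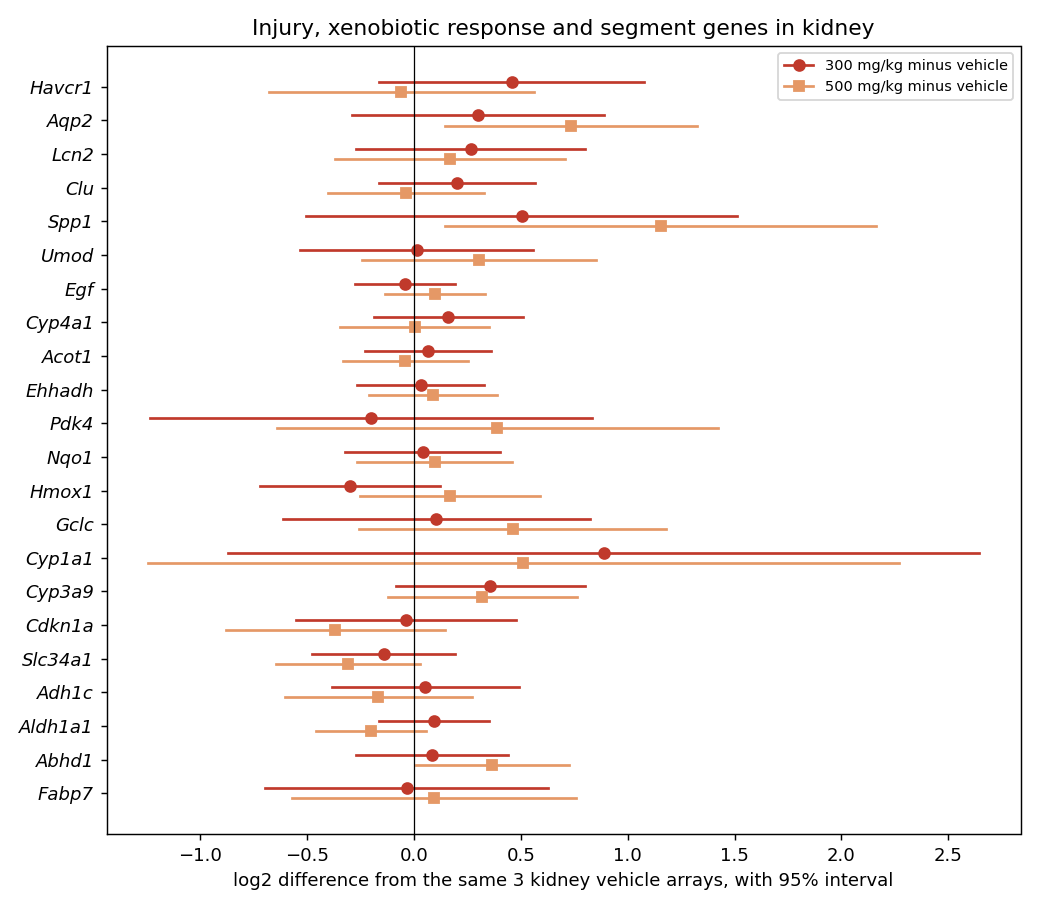
The log2 difference from vehicle with its 95% interval is shown for 22 injury, xenobiotic-response and segment genes in kidney, with red circles for 300 mg/kg and orange squares for 500 mg/kg. All 22 intervals at 300 mg/kg include 0.

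In liver, 300 mg/kg gave 38 probe sets past the test (0.122%), 33 higher (0.106%) and 5 lower (0.0161%), and these were set beside their kidney values. They were chosen on their liver values, a choice that favours large liver differences. None of the 38 passed the unadjusted threshold in kidney, against 3.62% of all probe sets, a share at which few of 38 would pass. Of the 33 higher in liver, 18 lay above and 15 below kidney vehicle, and their median kidney difference was 0.00. *Otub2*, a deubiquitinase, differed by 0.00 in kidney (95% interval -0.27 to 0.28) and 1.42 in liver. *Slc3a2*, the heavy chain of amino acid exchangers, differed by -0.11 in kidney and 0.82 in liver. The tRNA-charging enzymes *Iars1*, *Yars1* and *Nars1* differed by -0.04, -0.08 and -0.03 in kidney and by 0.71, 0.58 and 0.57 in liver. Another such enzyme, *Eprs1*, differed by 0.07 in kidney and 0.47 in liver by the probe set called in liver. Another of its 4 probe sets differed by 0.43 in kidney (95% interval -0.03 to 0.89). That probe set was among the 103 that passed in kidney only without vehicle replicate 1, so the kidney value of this gene depends on the probe set. *Slc6a9* differed by 0.32 in kidney (95% interval -0.07 to 0.72) and 0.67 in liver, and *Aimp1* by 0.19 and 0.50. *Nim1k*, a protein kinase, differed by -0.16 in kidney and -1.96 in liver, but its kidney level was low in both groups, with a mean of 3.14 at 300 mg/kg and 3.30 in vehicle. In liver it read 4.68 to 6.02 at 300 mg/kg and 6.98 to 7.64 in vehicle, so the kidney level left little room for a fall of that size.

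The difference between organs was itself tested over all 44 arrays, and 0 probe sets (0%) passed, with 1961 (6.32%) at the unadjusted threshold and a smallest adjusted p of 0.079. Without kidney vehicle replicate 1, 200 passed, and with other single arrays left out 0 to 3 did. *Sqstm1*, an autophagy receptor and NRF2 target, read 11.09, 10.72 and 10.97 in 300 mg/kg kidneys and 11.16, 11.08 and 11.12 in vehicle kidneys. In liver it read 11.92, 11.74, 11.79 and 11.87 at 300 mg/kg and 11.44, 11.38, 11.50 and 11.32 in vehicle, and the kidney minus liver difference was -0.61 (limma adjusted p = 0.155). *Srxn1*, which repairs oxidised peroxiredoxin and is also an NRF2 target, differed by -0.20 in kidney and 0.58 in liver (difference -0.78, limma adjusted p = 0.155). These 2 were chosen for their small p and did not pass. The labels do not say whether kidney and liver arrays share animals, though in both organs vehicle replicate 2 was the array with *Xist*. With arrays of the same dose and number taken as 1 animal, as a random block chosen after seeing the data, 0 passed and 2057 did so unadjusted, and the correlation within such an animal was 0.031.

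**Figure D5:**
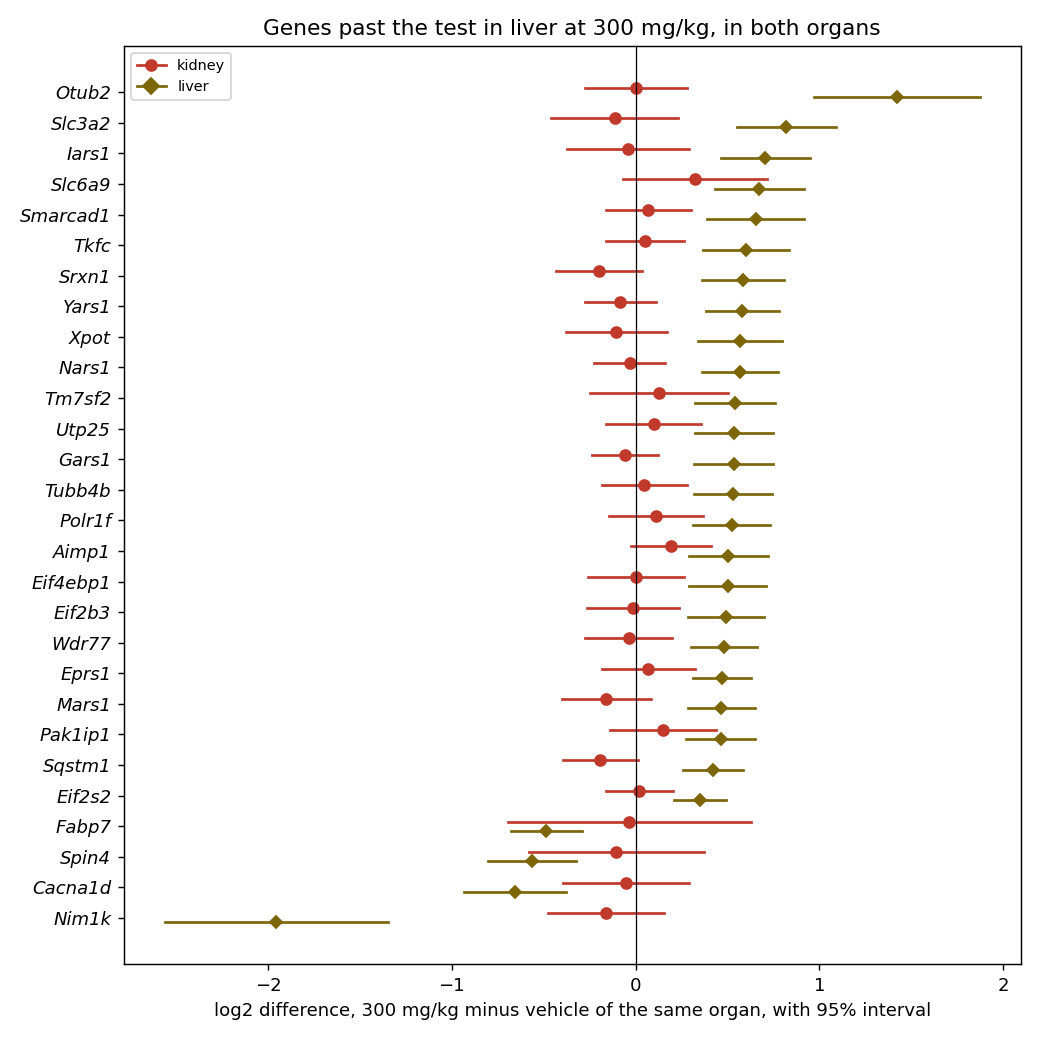
For the 28 named genes past the test in liver at 300 mg/kg, the log2 difference from vehicle of the same organ is plotted with its 95% interval, red circles for kidney and brown diamonds for liver. Genes were chosen on the liver values, and all 28 kidney intervals include 0.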

How the data were processed

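Total RNA was hybridized to Affymetrix Rat Genome 230 2.0 arrays, per the labels' protocols. The deposited table holds log2 values summarised by the authors with RMA, per the submitters' processing notes; for its version, software and chip definition, the sources used here give nothing. RMA includes quantile normalization, so a shift of most transcripts together would not be seen, and it compresses changes of dim probe sets. No scanner files were used, so no probe set could be called below background.

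After 57 control probe sets were left out of 31099, 31042 were tested. The platform annotation gives 20826 of these 1 gene symbol, 436 several and 9780 none. Gene IDs brought symbols up to date (20758 matched) through a table of assembly GRCr8, used for names only, which named 14217 genes. A gene is read by its probe set with the highest kidney mean. Groups come from titles. limma 3.58.1 (R 4.3.3) fitted 1 mean per dose over the 17 kidney arrays (lmFit, eBayes); two-sided p-values were adjusted over all probe sets (Benjamini-Hochberg, threshold 0.05). The organ difference was fitted over all 44 arrays. Scripts were tested on simulated data.

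The genes named are 8 leading genes each way (rule in the text), the 2 members of each list with the smallest p as a pool for examples, and a set of injury, xenobiotic and segment genes given whatever their values; *Cyp4a2* of that set had no probe set of its own. Genes of the largest differences, of the fit without vehicle replicate 1, of the organ difference and further list members were picked after their values were seen. The comparison and lists were chosen with earlier results of these data known. Some genes are not reported here. Alternatives were a fit of the 6 arrays alone, brighter probe sets only, a second quantile normalization, the replicate number as a block, array weights, a trended robust variance, the pooled low doses as reference, each array left out, and, added after seeing the data, the adipocyte marker level as a covariate and, for the organ difference, arrays of 1 dose and number as 1 animal (duplicateCorrelation).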

Additional observations from a re-analysis of the deposited data

Results flagged for a closer look

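In 11 genes, the 4 liver arrays at 300 mg/kg and the 4 of vehicle were each checked for 1 array far from the rest. The genes were those of smallest p for the organ difference, 4 each way, with *Xist*, *Eif2s3y* and *Uty*. Of the 22 checks, 2 stood out. Chance alone picks about 1 in 20, a rate that need not hold for genes chosen this way. *Xist* in liver vehicle had a gap of 0.998 of the group's range, with replicate 2 at 8.25. *Cdkl3* in liver at 300 mg/kg had a gap of 0.830, just over Dixon's critical value, with 1 array at 4.39. Kidney groups of 3 were too small for this check.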

How the results depend on the processing

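The count of 0 for kidney 300 mg/kg against vehicle held under 13 of 14 alternatives and ranged from 0 to 103 over arrays left out, with 103 without vehicle replicate 1. Its unadjusted count of 1123 of 31042 was 2800 with array weights, 2025 against pooled low doses and 837 to 2179 over arrays left out. It was 2179 without vehicle replicate 1 and 1928 without 300 mg/kg replicate 2. Among brighter probe sets it was 597 of the 15521 tested. The counts among brighter probe sets below have that same smaller base, so they are not comparable as counts with the main ones. The 500 minus 300 mg/kg count was 0 throughout, and its unadjusted count of 1532 was 811 among brighter probe sets, 2702 without 300 mg/kg replicate 3, 876 without 300 mg/kg replicate 2 and 945 without 500 mg/kg replicate 3. The organ difference had 0 calls, 1 in a fit of its 4 groups alone, 1 with trended robust variance and 0 to 200 over arrays left out (200 without kidney vehicle replicate 1), and its unadjusted count of 1961 was 1281 among brighter probe sets. *Clic5* reversed, at 0.0303 against pooled low doses. For named genes, 39 of 1492 values changed sign, as did 92 of 545 list medians. Same-numbered deviations from the group means correlated at 0.22, 0.36 and -0.25. At 300 mg/kg, replicates 1 and 2 correlated best with the vehicle array of their own number, and replicate 3 with vehicle replicate 1 (0.45). With 3 arrays a group, these values cannot settle whether replicate numbers pair the samples. With the replicate block 0 probe sets passed and 1012 did so unadjusted, which changed no call. Precision is limited by 3 arrays a group.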
